A study of Mus musculus with 6 samples.

Results

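Fenofibrate was compared with lovastatin in the livers of mice kept on the HFC diet, a diet named high fat in the sample names. The comparison used 4 of the 6 arrays of the series, 2 titled as fenofibrate-treated mice and 2 titled as lovastatin-treated mice, and it was described over the genes whose 4 arrays did not overlap between the drugs. Such a gene has both arrays of one drug above both arrays of the other, and is said below to separate the drugs. Of 16376 named genes with a value on all 4 arrays, 6654 (40.6%) separated them. With 2 arrays per drug, a random order of the arrays would already separate a large share of genes. The 6654 are therefore no count of drug effects.

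All 6 mice of the series were C57BL/6, aged 7 weeks, and ate the HFC diet for 12 days before the liver was taken. From day 5 the fenofibrate group received fenofibrate at 100 mg/kg and the lovastatin group lovastatin at 30 mg/kg, orally once a day. The lovastatin dose comes from the series' design text, because those samples' own treatment text speaks of fenofibrate, and here the titles decided the group. The other 2 mice (HFC replicates 1 and 2) ate the same diet without a drug. Each array carries the liver RNA of 1 mouse in one dye and a pool of liver RNA from 6 chow-fed mice in the other. The mouse was labelled with Cy3 on both fenofibrate arrays and with Cy5 on both lovastatin arrays and both HFC arrays.

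Fenofibrate is a fibrate, a prodrug whose acid binds PPARα, the nuclear receptor that switches on fatty acid uptake, activation and oxidation in the liver. PPARα pairs with RXR on direct repeats of a short sequence spaced by a single base, and in mice it also enlarges the peroxisome population. Lovastatin is a statin, a class of drugs that inhibit cholesterol synthesis. When sterols run low, SREBP2 raises the genes of that pathway, and dietary cholesterol lowers them.

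Values are log2 ratios, read as mouse over chow pool, so 0 is the level of the pool and 1 is a doubling. A difference below is the fenofibrate mean minus the lovastatin mean on that scale, with n = 2 mice per drug, and paired values are given in the order replicate 1, replicate 2. No label states this direction, which is the likely one because the mouse is listed as the first channel. As deposited, fenofibrate replicates 1 and 2 correlated across features with lovastatin replicate 2 at r = 0.331 and 0.328. With lovastatin replicate 1 the values were 0.0910 and 0.0648. Cholesterol synthesis genes had medians of -2.06 and -2.40 with fenofibrate and -2.10 and -1.92 with lovastatin. Turning the sign of both fenofibrate arrays would turn the sign of these correlations and of the fenofibrate medians. A single control spot read 4.83 and 4.95 on the fenofibrate arrays and lay below 0 on both lovastatin arrays. What this change of sign says about the direction was not tested, nor was the direction itself. Every side and rank below holds for mouse over pool alone. If both fenofibrate arrays are given the opposite sign, as red over green on every array would need, 115 of the 176 named genes change side. The fatty acid lists together then have 23 members higher and 59 lower, respiratory chain subunits 5 and 18, and apolipoproteins 10 and 5. Acute phase genes then have 13 and 5, and cholesterol synthesis genes 17 and 0 with a median difference of 4.19. This check of the lists was added after seeing the data. Dye and drug cannot be told apart in any of these differences: a gene that takes up one dye better than the other shifts the fenofibrate arrays one way and the lovastatin arrays the other. A dye effect alone would leave the groups at equal distances on opposite sides of 0. A gene that also responds to the diet is shifted on all 4 arrays, so its means can share a sign despite a dye effect. The number of separated genes whose group means have opposite signs is given with several gene lists. It is a description and cannot tell dye from drug. The ratios hold no levels, so the tissue could not be checked against the level of liver markers.

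Lovastatin replicate 1 stood apart from the other arrays. Its ratios had an SD of 1.09 across probes, against 0.420 to 0.570 on the other 3 arrays compared. Across features it correlated with them at r = 0.0648 to 0.193, while the other 3 correlated with each other at r = 0.328 to 0.417. These correlations are across genes, share the chow pool, and are given as a description. HFC replicate 2 has 4 of 8 column blocks displaced on the array, and its values in those blocks were not used.

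Fenofibrate was the higher drug in 3322 genes (20.3%) and the lower in 3332 (20.3%), and the median difference over all named genes was -0.01. Most gaps were small. The gap, the distance between the nearest arrays of the 2 drugs, had a median of 0.21 among the genes higher with fenofibrate and 0.18 among those lower. It reached 1 in 80 genes higher with fenofibrate (0.489%) and in 35 lower (0.214%). Group means lay on opposite sides of 0 in 2252 of the genes higher (67.8%) and in 2161 of those lower (64.9%). The HFC arrays share the lovastatin dye. HFC replicate 1 lay nearer to the lovastatin mean in 1851 of 3319 genes higher with fenofibrate (55.8%) and in 1720 of 3332 lower (51.6%), and HFC replicate 2 in 859 of 1884 (45.6%) and 865 of 1611 (53.7%). Counts given for a list, of separated genes, of opposite signs or of nearness to HFC, are read against the shares in this paragraph. No single gene passed the test across all features: limma called 0 of 18803 features at an adjusted p under 0.05 (0%), the smallest adjusted p was 0.731, and 825 had an unadjusted p under 0.05. The 95% interval of a difference reached a median of 0.921 on either side. Without lovastatin replicate 2 limma called 1415 features, 516 higher and 899 lower, with the lone replicate 1 assumed to vary as little as the fenofibrate arrays, and without any other array it called 0. Without lovastatin replicate 1, 5424 genes (33.1%) lay higher with fenofibrate and 5575 (34.0%) lower, since a lone array separates more easily. Over the 4 arrays left out in turn these counts ran from 5115 to 6811 and from 5222 to 6802. The shares without lovastatin replicate 1 are about what a random order of the arrays left would give. The counts of a gene list without lovastatin replicate 1 are called its 3-array counts below, and are read against 33.1% and 34.0%.

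The widest gaps with fenofibrate higher included the lipid genes Mogat1 and Acot1, and also Vnn1, which is in none of the lipid lists. Mogat1, a monoacylglycerol acyltransferase of triglyceride synthesis, measured 2.34 and 2.40 with fenofibrate and -0.66 and -0.22 with lovastatin. Both fenofibrate arrays lay far above the pool and both lovastatin arrays below it, a difference of 2.81 (SE 0.292). Acot1, a cytosolic acyl-CoA thioesterase, measured 3.76 and 4.05 with fenofibrate and 1.89 and 1.63 with lovastatin. All 4 arrays of Acot1 lay above the pool, with a difference of 2.15 (SE 0.282), and HFC replicates 1 and 2 at 2.48 and 1.48 lay below both fenofibrate arrays. Vnn1, the pantetheinase that releases pantothenate and cysteamine, measured 1.96 and 2.31 with fenofibrate and 0.09 and 0.16 with lovastatin. Its lovastatin arrays lay near the pool, as did HFC replicate 1 (0.26), while HFC replicate 2 lay at -0.63, and the difference was 2.01 (SE 0.277).

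The other 9 of the 12 widest gaps in that direction belong to genes with no shared role in lipid handling. Gse1, a coiled-coil nuclear protein, measured 0.07 and 0.34 with fenofibrate and -2.38 and -2.13 with lovastatin. Hoxa9, a homeobox transcription factor, measured 1.02 and 1.77 with fenofibrate and -1.38 and -0.98 with lovastatin. The HFC arrays, which share their dye with the lovastatin arrays, lay at -0.22 and 0.25 for Gse1 and at 0.79 and 0.70 for Hoxa9, nearer to fenofibrate in both genes. Ifit1bl2, an interferon-induced tetratricopeptide gene, was alike, at 0.02 and 0.27 with fenofibrate, -1.75 and -1.74 with lovastatin, and 0.06 and -0.28 on the HFC arrays. Olfr495, an olfactory receptor, had the widest gap of all, at 1.46 and 2.27 with fenofibrate against -3.50 and -1.12 with lovastatin. Its lovastatin arrays disagreed by more than its fenofibrate arrays, as they did for Ctnna3, Tmem150b, Foxd3, Hoxb4 and Trim45. In those 6 of the 12 genes the lovastatin arrays lay more than 1 apart, with replicate 1 the lower, and in 0 of the 12 did the fenofibrate arrays. Group means had opposite signs in 10 of the 12. Ctnna3 and Hoxa9 had the same fenofibrate values, 1.02 and 1.77. No spot intensities were used, so whether the probes with the widest gaps in either direction were dim was not tested. A wide gap is therefore no ranking of drug effects.

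The widest gaps with fenofibrate lower held several secreted liver products. Hamp, which encodes the iron hormone hepcidin, measured -2.06 and -2.56 with fenofibrate and -0.36 and -0.56 with lovastatin, a difference of -1.85 (SE 0.310). The undrugged HFC arrays lay at -0.90 and -2.24, so their own spread covered most of the space between the drugs. F2, prothrombin, measured -1.0 and -1.19 with fenofibrate and 0.34 and 0.21 with lovastatin, a difference of -1.37 (SE 0.261). Mup5, a major urinary protein, was far below the pool under both drugs, at -3.91 and -4.15 with fenofibrate and -2.69 and -2.37 with lovastatin. Major urinary proteins are near-identical copies, and the probe may read several of them. Inhba, the activin βA subunit, measured -0.63 and -1.05 with fenofibrate and 0.81 and 1.33 with lovastatin, with the HFC arrays beside lovastatin at 0.70 and 0.53.

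Array-to-array spread varied within that group, with the lovastatin arrays more than 1 apart in 1 of the 12 genes (Cdc6, 2.99 and 1.78) and the fenofibrate arrays in 1 (Hoxd1, -3.32 and -2.02). Mro, called maestro, measured -0.66 and -0.70 with fenofibrate and 1.15 and 1.22 with lovastatin, and HFC replicate 1 lay at 1.17, level with lovastatin. Its difference was -1.87 (SE 0.250). Hepacam, a cell adhesion molecule, measured -0.83 and -0.77 with fenofibrate and 0.48 and 0.49 with lovastatin, with HFC at -0.52 and -0.38, nearer to fenofibrate. Gpr20, an orphan G protein-coupled receptor, had the widest gap, at -2.03 and -2.0 against 0.71 and 0.11, but its HFC arrays lay far apart (-0.27 and 1.65). The remaining genes were Hoxd1, 1300017J02Rik, Styk1, Pard3 and Cdc6, and opposite signs were seen in 9 of the 12. HFC replicate 1 lay nearer to the lovastatin mean in 8 of the 12 genes higher with fenofibrate and in 9 of the 12 lower, and HFC replicate 2 in 4 of the 8 and 3 of the 5 it measured.

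**Figure D1:**
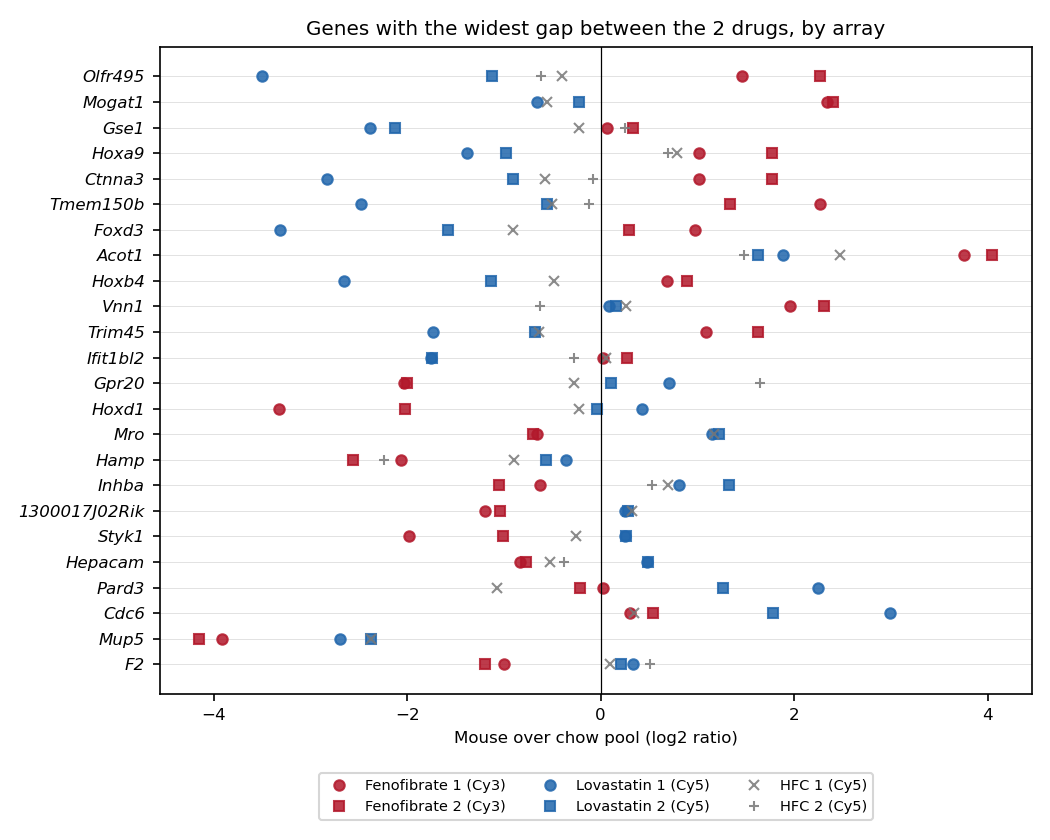
Log2 ratio of mouse over chow pool (horizontal axis) on each array for the 12 genes with the widest gap in each direction, with fenofibrate in red, lovastatin in blue, HFC without drug in grey, and circle or cross for replicate 1 and square or plus for replicate 2. Red and blue never overlap within a gene, the gaps run from 1.76 to 2.58 where fenofibrate is higher and from 1.21 to 2.11 where it is lower, and the blue symbols lie more than 1 apart in 6 of the first 12 genes.

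Genes of fatty acid handling lay higher with fenofibrate more often than genes at large. Of 119 measured genes in 6 lists, 58 (48.7%) separated the drugs with fenofibrate higher and 16 (13.4%) with it lower, and their median difference was 0.30 against -0.01 over all named genes. The group means had opposite signs in 22 of the 58, a smaller share than over all separated genes. HFC replicate 1, in the lovastatin dye, lay nearer to lovastatin in 45 of the 58 (77.6%) and HFC replicate 2 in 25 of the 35 it measured. The 3-array counts of these lists were 74 higher and 27 lower with a median of 0.29.

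Microsomal omega oxidation, which starts with Cyp4a hydroxylation of the terminal carbon, held the Cyp4a genes, classical PPARα targets. Of 11 measured genes 5 lay higher with fenofibrate and 2 lower, with a median difference of 0.65. The 3-array counts were 5 and 3, with a median of 0.27. Cyp4a31 measured 3.01 and 2.79 with fenofibrate and 1.54 and 0.96 with lovastatin, a difference of 1.65 (SE 0.327). Cyp4a10 measured 2.15 and 1.70 against 1.01 and 0.58, and Cyp4a12a 1.98 and 1.78 against 0.79 and 0.71, each a difference of 1.13. Cyp4a14 measured 2.98 and 2.54 against 2.29 and 1.94, a narrower gap of 0.25 at a similar height. All 4 genes lay above the pool on every array of both drugs, so none had group means of opposite sign. HFC replicate 1 lay at 0.59, 0.49, 0.53 and 1.28 for Cyp4a31, Cyp4a10, Cyp4a12a and Cyp4a14, below every array of both drugs. The Cyp4a genes are close paralogs, and their probes may cross-hybridise. Aldh3a2, the fatty aldehyde dehydrogenase that follows them, measured 1.19 and 1.53 against 0.78 and 0.54. The Cyp4f members did not share this, and Cyp4f14 was lower with fenofibrate (-1.71 and -1.82 against -1.68 and -0.71).

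Uptake and binding proteins went both ways, with 5 of 14 higher with fenofibrate and 5 lower, and a median of -0.09 (3-array counts 6 and 7, median -0.04, a sign that changed under 2 of 6 other settings). The 4 widest gaps were all on the higher side. Cd36, the fatty acid translocase, measured 1.17 and 1.67 with fenofibrate and 0.15 and 0.07 with lovastatin, a difference of 1.31 (SE 0.303). Its lovastatin arrays lay level with HFC replicate 1 (0.12). Lpl, lipoprotein lipase, measured 2.54 and 2.12 against 0.68 and 1.29, and the HFC arrays at 1.92 and 1.70 lay between the drugs. Fabp1, the liver fatty acid binding protein, measured 1.92 and 1.62 against 0.40 and 0.89, and Fabp2, the intestinal form, 2.58 and 2.26 against 1.58 and 1.35. Fabp5, the epidermal form, was on the other side at -1.66 and -1.75 against -1.03 and -1.31.

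Among acyl-CoA thioesterases and synthetases, which free or activate fatty acids, 10 of 19 lay higher with fenofibrate and 0 lower, with a median of 0.39 (3-array counts 12 and 4). In 8 of the 10 the group means had opposite signs, Acot1 and Acsl3 being the exceptions. Acot8, the peroxisomal thioesterase, measured 0.68 and 0.58 with fenofibrate and -0.26 and -0.20 with lovastatin. Acsl6 measured 0.345 and 0.77 against -0.51 and -0.30, but the HFC arrays lay above both drugs at 1.39 and 1.31. It has 2 probes and only 1 had values on all 4 arrays, so its averages do not rest on the same probes throughout. That probe alone gave a difference of 0.88, also with fenofibrate higher. Acss1, the mitochondrial acetyl-CoA synthetase, measured 0.27 and 0.36 against -1.47 and -0.14, so its difference of 1.12 rested largely on lovastatin replicate 1.

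Peroxisomal oxidation had 17 of 27 genes higher with fenofibrate and 2 lower, with a median of 0.36, and opposite signs in 3 of the 17. Without lovastatin replicate 1 the counts were 22 and 3. Ehhadh, the peroxisomal bifunctional enzyme, measured 2.34 and 1.81 with fenofibrate and 0.79 and 0.84 with lovastatin, a difference of 1.26 (SE 0.308). Ech1, a dienoyl-CoA isomerase, measured 1.28 and 0.83 against 0.42 and -0.12. Eci2, an enoyl-CoA isomerase, measured 0.90 and 1.14 against 0.38 and 0.43, and Abcd3, the peroxisomal membrane transporter, 0.68 and 1.32 against 0.27 and 0.11. Peroxin genes lay on the same side, with Pex19 at 0.85 and 0.31 against -0.08 and -0.22 and Pex11a at 0.68 and 0.73 against 0.32 and 0.06. Acox3 and Cat, the catalase gene, were the 2 lower genes, with differences of -0.37 and -0.13.

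Mitochondrial oxidation and ketogenesis had 13 of 27 genes higher with fenofibrate and 2 lower, with a median of 0.19 (3-array counts 17 and 2). Acadvl, the very long chain acyl-CoA dehydrogenase, measured 1.44 and 1.14 with fenofibrate and 0.32 and -0.19 with lovastatin, a difference of 1.23 (SE 0.321). Acadl, its long chain relative, measured 0.55 and 0.92 against -0.01 and -0.04. Slc25a20, the carnitine-acylcarnitine carrier, measured 1.17 and 0.97 against 0.47 and 0.27. Both subunits of the trifunctional protein were measured and differed: Hadhb measured 1.10 and 1.17 against 0.38 and 0.27, whereas Hadha overlapped at 0.12 and -0.37 against -0.17 and 0.10. Cpt1a, the carnitine palmitoyltransferase that admits fatty acids to mitochondria, overlapped too, at -0.43 and -0.02 against 0.27 and -0.31. Pdk4, which restrains pyruvate oxidation, separated by a gap of 0.16 around the pool level (0.13 and 0.16 against -0.03 and -0.05). Fgf21, a fasting hormone and PPARα target, lay on the lower side at -0.41 and 0.00 against 0.54 and 0.11. Ppara itself overlapped, at -0.39 and 0.25 against -0.02 and -0.04.

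Lipid droplet and lipolysis genes were mixed, with 8 of 21 higher and 5 lower and a median of 0.14 (3-array counts 12 and 8, median 0.21). G0s2, the inhibitor of adipose triglyceride lipase, measured -0.70 and -0.09 with fenofibrate and 0.94 and 0.75 with lovastatin, a difference of -1.24 (SE 0.331). Plin4, a perilipin, was also lower, at 0.17 and 0.38 against 1.68 and 0.86. Pnpla3 was lower at -0.85 and -0.78, but its lovastatin arrays were far apart (-0.28 and 1.45). Fitm1, a fat storage-inducing protein, was higher, at 0.31 and 0.20 against -0.33 and -0.17. Plin2, a widely used marker of lipid droplets, overlapped at 0.23 and 0.52 against 0.32 and 0.36.

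**Figure D2:**
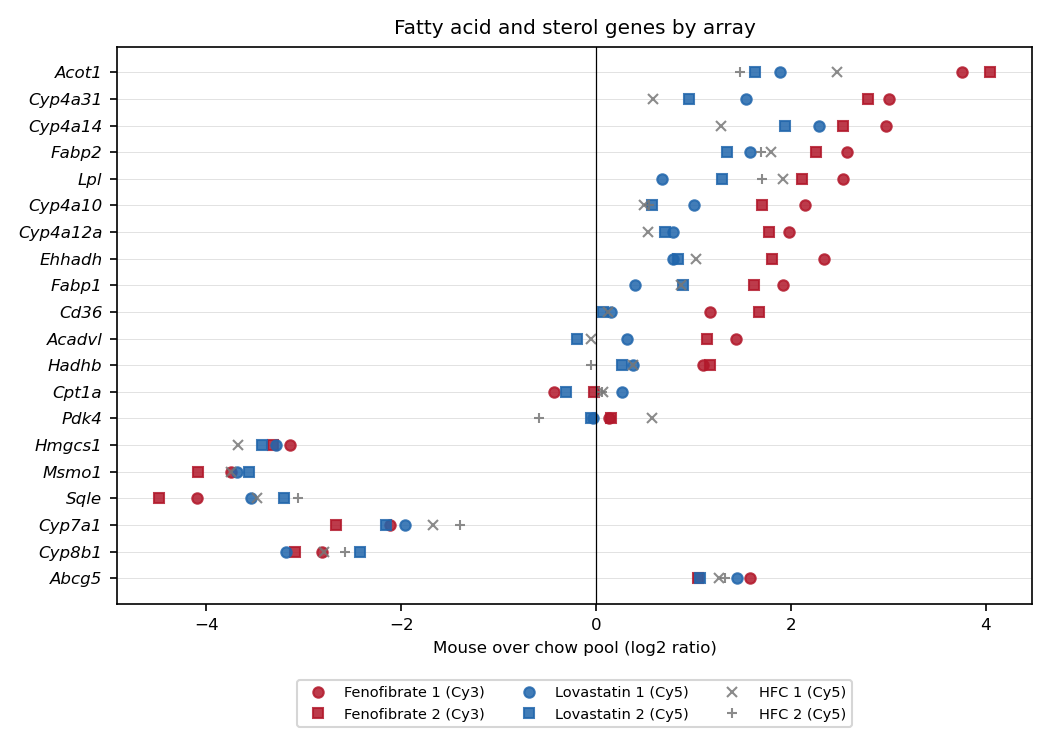
Log2 ratio of mouse over chow pool (horizontal axis) on each array for genes of fatty acid oxidation and binding, sterol synthesis, bile acid synthesis and sterol efflux, with symbols as colour for drug and shape for replicate. Red lies to the right of blue for Acot1, the Cyp4a genes, Ehhadh and Cd36, while red and blue mix for Cpt1a, Hmgcs1 and Abcg5.

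Promoter sequence of the fatty acid genes higher with fenofibrate was searched for the direct repeat that PPARα binds. RefSeq promoters (GRCm38.p6) were at hand for 47 of the 58 genes, and the 250 bases before the start site were read on both strands. The full repeat, AGGNCA followed after any single base by a second AGGNCA, was found in 1 of the 47, Fabp1, and in 108 of all 27025 genes with a promoter entry (0.40%). Its half-site AGGTCA, which lies within some full repeats, was found in 8 of the 47 genes (17.0%) and in 15.8% of all genes with a promoter entry. The 3 sequences below are shown because these members separated the drugs by wide gaps and hold a match, with each match in capitals. In Fabp1 (chr6:71199629-71199878, plus strand) the repeat lies on the minus strand and starts 67 bases before the start site, and a half-site starts 9 bases before it. Acadvl (chr11:70015429-70015678, minus strand) holds a half-site 87 bases before its start, and Cd36 (chr5:17835897-17836146, minus strand) one 228 bases before. A match describes letters only.
Fabp1: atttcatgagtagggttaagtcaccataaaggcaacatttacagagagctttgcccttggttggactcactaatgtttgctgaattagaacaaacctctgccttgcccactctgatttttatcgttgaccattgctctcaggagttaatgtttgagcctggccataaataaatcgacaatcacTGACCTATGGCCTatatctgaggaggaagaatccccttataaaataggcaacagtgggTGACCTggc
Acadvl: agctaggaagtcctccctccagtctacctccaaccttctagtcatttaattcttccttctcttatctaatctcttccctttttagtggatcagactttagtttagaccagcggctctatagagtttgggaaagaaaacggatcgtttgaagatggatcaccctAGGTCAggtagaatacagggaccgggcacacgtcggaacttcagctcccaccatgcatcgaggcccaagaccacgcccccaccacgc
Cd36: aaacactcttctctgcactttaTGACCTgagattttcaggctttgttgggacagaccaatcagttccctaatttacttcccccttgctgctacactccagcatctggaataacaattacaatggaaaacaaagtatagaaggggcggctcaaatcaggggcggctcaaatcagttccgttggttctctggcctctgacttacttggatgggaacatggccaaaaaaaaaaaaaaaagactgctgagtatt

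Subunits of the respiratory chain, which oxidises what fatty acid oxidation reduces, lay higher with fenofibrate in 23 of 34 genes (67.6%) and lower in 0, with a median of 0.30 (3-array counts 24 and 0, median 0.28). The list medians lay near the pool, at 0.26 and 0.17 with fenofibrate and -0.13 and -0.095 with lovastatin. Cyc1, cytochrome c1 of complex III, measured 0.51 and 0.94 with fenofibrate and -0.29 and -0.40 with lovastatin, a difference of 1.07 (SE 0.291). Cox5a of complex IV measured 0.56 and 0.58 against -0.33 and -0.13, and Sdhd of complex II measured 0.44 and 0.65 against -0.28 and -0.25. Atp5c1 of the ATP synthase measured 0.44 and 0.42 against -0.27 and -0.25. Group means had opposite signs in 19 of the 23, the pattern that a dye effect also gives, and dye and drug cannot be told apart here. HFC replicate 1 lay nearer to lovastatin in 19 of the 23, and HFC replicate 2 in 3 of the 8 it measured. Citrate cycle genes, a list chosen after the values were seen, had 7 of 17 higher and 0 lower with a median of 0.19 (3-array counts 10 and 1). Cs, citrate synthase, measured 0.22 and 0.10 against -0.58 and -0.32.

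Synthesis of fatty acids and triglycerides separated mainly on the higher side, with 9 of 26 genes higher, 3 lower and a median of 0.15 (3-array counts 13 and 8, median 0.27, a sign that changed under 1 of 6 other settings). Besides Mogat1, the widest gap was that of Elovl3, an elongase of very long chain fatty acids, at 0.17 and 0.80 with fenofibrate and -1.08 and -1.12 with lovastatin. Its difference was 1.59 (SE 0.330). Fads2, the delta-6 desaturase, measured 0.57 and 0.30 against -0.50 and -0.53, with HFC beside lovastatin at -0.52 and -0.42. Me1, malic enzyme, measured 0.275 and 0.355 against -0.62 and -0.29. Acacb, an acetyl-CoA carboxylase, was higher as well, at -1.39 and -2.07 against -3.06 and -2.52. Fasn, fatty acid synthase, overlapped at -1.64 and -2.41 against -2.21 and -0.74, and Scd1, a desaturase, overlapped at 1.14 and 0.13 against -0.28 and 0.25. Acly, ATP citrate lyase, was lower with fenofibrate at -1.84 and -2.32 against -0.92 and -1.34.

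Cholesterol synthesis genes lay far below the chow pool under both drugs, as they did on the diet without a drug. The list medians were -2.06 and -2.40 with fenofibrate, -2.10 and -1.92 with lovastatin, and -2.22 on HFC replicate 1. Of 18 measured genes 0 separated with fenofibrate higher and 6 (33.3%) with it lower, the median difference was -0.34, and the group means had opposite signs in 0 of the 6. Without lovastatin replicate 1, 2 lay higher and 9 lower. Sqle, squalene epoxidase, measured -4.10 and -4.49 with fenofibrate and -3.54 and -3.20 with lovastatin, a difference of -0.93 (SE 0.305). The HFC arrays lay beside lovastatin at -3.48 and -3.06. Ebp measured -1.29 and -1.77 against -0.91 and -0.97, Hsd17b7 -1.98 and -2.42 against -1.70 and -1.72, and Tm7sf2 -2.75 and -2.36 against -2.15 and -1.93. Msmo1 was also lower (-3.75 and -4.08 against -3.68 and -3.56). Other enzymes of the later steps overlapped, among them Lss, Cyp51, Dhcr7 and Sc5d, with differences of -0.39, -0.07, 0.03 and 0.20. Hmgcs1, an early enzyme of the pathway, overlapped at -3.14 and -3.31 against -3.28 and -3.43.

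Regulators of sterol uptake divided, with 2 of 12 genes higher and 4 lower (3-array counts 4 and 6). Srebf2, the pathway's transcription factor, measured -0.89 and -1.29 with fenofibrate and -0.37 and -0.61 with lovastatin, a difference of -0.60 (SE 0.296). Scarb1, the HDL receptor, was lower as well, at 0.63 and 0.24 against 1.18 and 1.11. Npc1, which exports cholesterol from lysosomes, was higher at 0.15 and 0.70 against -0.29 and -0.13. Insig1 overlapped widely (-1.03 and -2.23 against -2.39 and -1.45). The list's median of 0.04 changed sign under every one of the 6 settings tried.

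Sterol efflux and bile acid genes mostly overlapped, as did named genes at large, of which 40.6% separated the drugs. Of 12 LXR targets 2 lay higher and 3 lower, and of 26 bile acid genes 2 and 5. The 3-array counts were 4 and 5 for the first list and 6 and 11 for the second. Apoe had the widest gap of the LXR targets, on the lower side with Apoc1 and Pltp, and its values are given with the apolipoproteins. Abcg1, a cholesterol exporter, measured 1.35 and 1.33 with fenofibrate and 0.69 and 0.11 with lovastatin, and Lpcat3, which remodels phospholipids, 0.54 and 0.43 against 0.01 and -0.29. Abcg5, which sends sterols into bile, overlapped at 1.58 and 1.05 against 1.45 and 1.07, above the pool on every array. Cyp7a1, the 7α-hydroxylase that starts bile acid synthesis, lay below the pool under both drugs and overlapped (-2.11 and -2.67 against -1.96 and -2.16). Cyp8b1, which sets the cholic acid share, overlapped at -2.81 and -3.09 against -3.18 and -2.42. Abcc3, a basolateral bile acid exporter, was higher at 0.82 and 0.85 against 0.37 and 0.32, and Slco1b2, an uptake carrier, lower at -1.0 and -0.74 against -0.32 and -0.37.

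**Figure D3:**
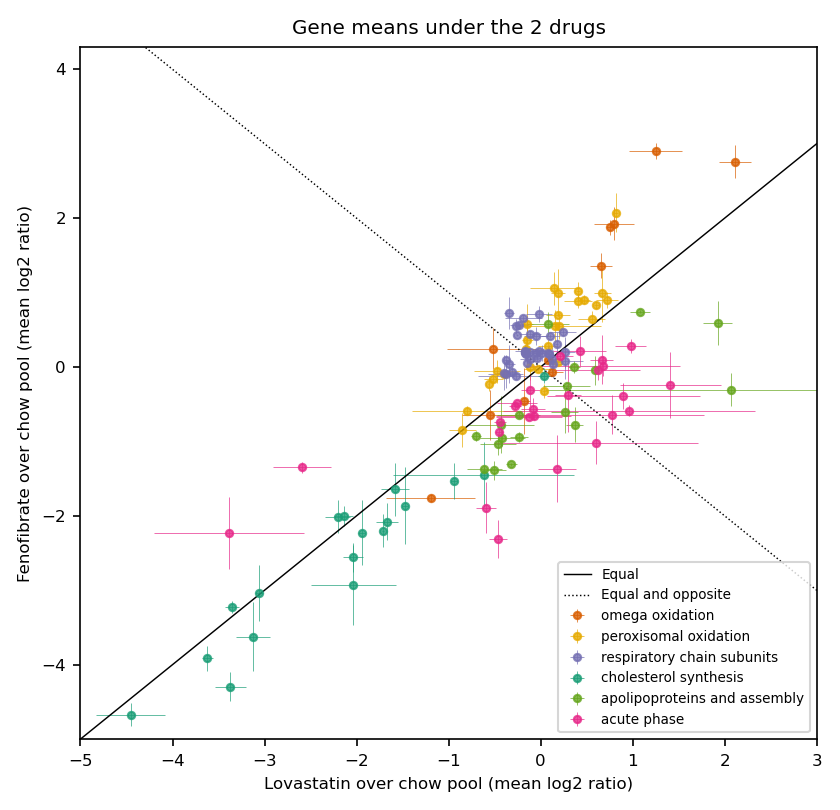
Mean log2 ratio over the chow pool with lovastatin (horizontal axis) and fenofibrate (vertical axis), 1 point per measured gene of 6 lists. Bars run from the lower to the higher value of the 2 mice. Points on the solid line have equal means, and points on the dotted line have equal and opposite means, where a dye effect alone would put them. Most peroxisomal genes lie above the solid line, most apolipoprotein and acute phase genes lie below it, respiratory chain subunits cluster near 0, and cholesterol synthesis genes lie far down the solid line.

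Apolipoproteins and genes of lipoprotein assembly were lower with fenofibrate in 16 of 18 measured genes (88.9%) and higher in 1, with a median of -0.60. The 3-array counts were the same, with a median of -0.37. Apoe measured -0.54 and -1.01 with fenofibrate and 0.46 and 0.28 with lovastatin, a difference of -1.15 (SE 0.302). Apoh, a phospholipid-binding plasma protein, measured -1.33 and -1.29 against -0.26 and -0.38, and Apof, a lipid transfer inhibitor, -1.26 and -1.52 against -0.38 and -0.64. Angptl8, a hormone that inhibits lipoprotein lipase, measured 0.89 and 0.29 against 2.08 and 1.77, above the pool under both drugs. Apoc3, a lipoprotein lipase inhibitor that fibrates are known to lower, measured -1.35 and -1.39 against -0.42 and -0.80. Apoa1 was the gene that overlapped (-0.39 and -1.16 against -0.07 and -0.78), and Mttp, the microsomal transfer protein, was the gene higher with fenofibrate (0.42 and 0.74 against -0.15 and 0.31). Group means had opposite signs in 5 of the 16, and HFC replicate 1 lay nearer to lovastatin in 11 of them, against 51.6% over all genes lower with fenofibrate, and HFC replicate 2 in 7 of 9.

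Other plasma proteins made by hepatocytes lay mostly on the same side. The acute phase, coagulation and hepatocyte lists described here and below share members, so their counts are not independent. Fgb is in each of them, Ahsg in the acute phase and hepatocyte lists, and Apoa1 in the hepatocyte and apolipoprotein lists. Acute phase genes had 19 of 25 (76.0%) lower with fenofibrate and 1 higher, with a median of -0.58. A single array weighed on this list: its median was 0.35 on lovastatin replicate 1, -0.23 on lovastatin replicate 2, and -0.50 and -0.69 on the fenofibrate arrays. The 3-array counts were 19 lower and 4 higher, with a median of -0.23. Hamp and Fgb, the fibrinogen β chain, had the widest gaps, Fgb at -0.92 and -1.82 against 0.38 and -0.03. The other fibrinogen chains differed less: Fgg measured -0.74 and -0.74 against -0.38 and -0.51, and Fga overlapped. Ahsg, fetuin-A, measured -1.55 and -2.23 against -0.48 and -0.70. Saa1, a serum amyloid, shows the single-array pattern, at -0.38 and -0.90 against 1.78 and -0.23. The 1 gene higher with fenofibrate was Mt1, a metallothionein, at -1.27 and -1.43 against -2.28 and -2.91, with the HFC arrays above both drugs at -0.05 and 1.08.

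Coagulation and complement genes, a list chosen after the values were seen, were lower with fenofibrate in 25 of 36 and higher in 2, with a median of -0.43 (3-array counts 28 and 4). Vtn, vitronectin, measured -1.23 and -0.92 with fenofibrate and 0.17 and 0.23 with lovastatin, a difference of -1.28 (SE 0.271). C9, of the membrane attack complex, measured -0.50 and -0.59 against 0.66 and 0.31. HFC replicate 1 lay nearer to lovastatin in 23 of the 25, against 51.6% over all genes lower with fenofibrate, and HFC replicate 2 in 10 of 13. Group means had opposite signs in 14 of the 25, against 64.9% over all genes lower with fenofibrate. General hepatocyte markers did not all lie on one side, with 6 of 10 lower and 1 higher (the 3-array counts were the same). Trf, transferrin, measured -0.62 and -0.90 against 0.73 and 0.46, and Ttr, transthyretin, -1.31 and -1.28 against -0.59 and -0.65. Alb, albumin, overlapped at -0.63 and -0.80 against -1.36 and -0.64, and Cps1 of the urea cycle was higher at -0.39 and 0.01 against -0.80 and -0.50.

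Interferon-induced and antigen-processing genes were lower with fenofibrate in 16 of 28 (57.1%) and higher in 0, with a median of -0.38 (3-array counts 20 and 1, median -0.41). Cxcl10, a chemokine, measured -0.30 and 0.01 with fenofibrate and 0.88 and 1.01 with lovastatin, a difference of -1.09 (SE 0.274). Irf9, a subunit of the interferon-stimulated transcription factor, measured -0.51 and -0.44 against 0.23 and 0.27. Igtp, an interferon-induced GTPase, measured -0.78 and -0.92 against -0.42 and 0.16. Gbp2, a guanylate-binding protein, measured -0.63 and -0.65 against 1.54 and -0.11, so most of its difference came from lovastatin replicate 1. Ifit1bl2, which is no member of the list, lay on the other side.

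Markers of Kupffer cells and macrophages were lower with fenofibrate in 11 of 15 and higher in 0, with a median of -0.59 (3-array counts 12 and 0, median -0.51). The median of the list was -0.26 and -0.54 on the fenofibrate arrays, 0.07 and 0.11 on the lovastatin arrays, and 0 on HFC replicate 1. Marco, a scavenger receptor, measured -0.68 and -1.43 with fenofibrate and 1.21 and 0.19 with lovastatin. Adgre1, which encodes the F4/80 antigen, measured -0.38 and -0.33 against 0.22 and 0.46. C1qc, of complement C1q, measured -0.45 and -0.90 against 0.12 and 0.34, and Ctss, cathepsin S, -0.24 and -0.54 against 0.29 and 0.48. Clec4f, a receptor of Kupffer cells, was on the same side at -0.26 and -0.80 against 0.05 and 0.07. Group means had opposite signs in 8 of the 11, against 64.9% over all genes lower with fenofibrate. In whole liver, fewer cells of a type and less RNA per cell cannot be told apart, and the part of these markers in the interferon and complement counts was not tested.

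Markers of other liver cells were less one-sided. Their counts are small and are read against 20.3% higher and 20.3% lower over all named genes. Stellate and fibroblast markers had 6 of 14 lower and 0 higher with a median of -0.25 (3-array counts 9 and 1, median -0.38), with Lum, lumican, at -0.89 and -0.50 against -0.05 and 0.14. Cholangiocyte markers had 5 of 9 higher and 2 lower, also without lovastatin replicate 1. Krt23, a keratin, was high under both drugs, at 3.34 and 2.83 with fenofibrate and 2.27 and 1.65 with lovastatin. Cldn4, a tight junction protein, measured 0.46 and 0.02 against -1.13 and -0.85. Epcam was on the lower side at -0.35 and -0.37 against 1.10 and -0.08, and Krt19 and Krt7 overlapped. Lymphocyte markers had 5 of 16 higher and 3 lower, endothelial markers 2 of 13 higher and 2 lower, and neutrophil and erythroid markers 1 of 10 higher and 4 lower. Their 3-array counts were 5 and 8, 2 and 4, and 1 and 4. Camp, a neutrophil granule protein, was among the lower at -0.22 and -0.44 against 1.24 and 0.62. Markers of pancreas and adipose tissue, which a liver sample could carry over, had 1 of 14 higher and 5 lower (3-array counts 1 and 6).

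**Figure D4:**
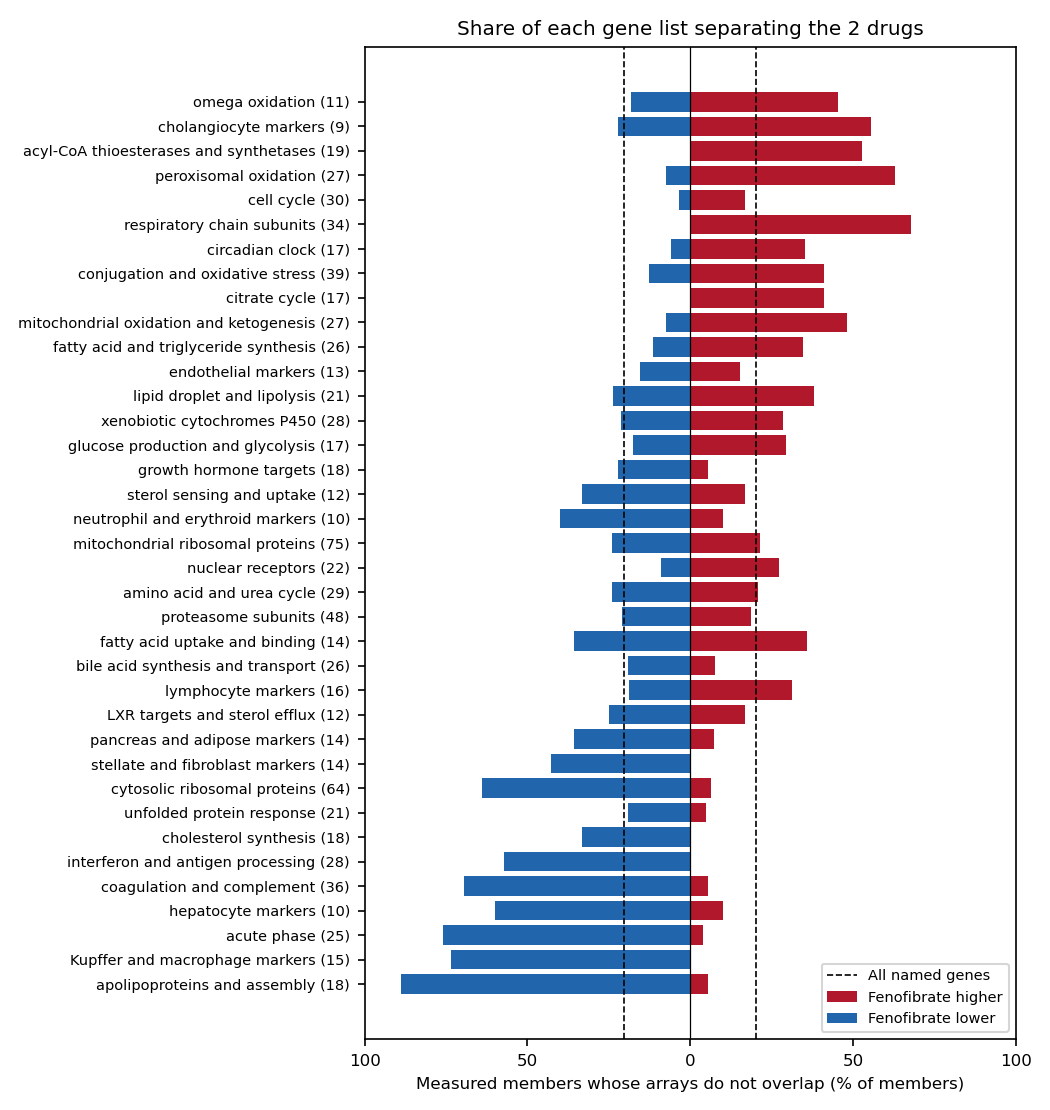
Share of measured members (% of members, number measured in brackets) whose fenofibrate arrays lie wholly above (red, to the right) or wholly below (blue, to the left) the lovastatin arrays, for 37 gene lists ordered by median difference. Dashed lines mark 20.3% on either side, the share over all named genes. With the ratios read as mouse over pool, respiratory chain and peroxisomal genes reach furthest to the right, and apolipoprotein, acute phase and Kupffer cell genes furthest to the left.

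Amino acid and glucose metabolism held single genes with wide gaps in lists that were near the background. Amino acid and urea cycle genes had 6 of 29 higher and 7 lower, with a median of 0.02 (3-array counts 8 and 8, median 0.005, a sign that changed under 4 of 6 other settings). Gnmt, which consumes S-adenosylmethionine, measured -2.13 and -2.53 with fenofibrate and -1.08 and -0.98 with lovastatin, a difference of -1.30 (SE 0.286). Oat, ornithine aminotransferase, measured -2.41 and -1.72 against -0.77 and -0.89. Got2, the mitochondrial aspartate aminotransferase, was higher at 0.60 and 0.65 against -0.06 and -0.01. Of 17 genes of glucose production and glycolysis 5 lay higher and 3 lower (3-array counts 9 and 5). G6pc, which releases glucose from glucose 6-phosphate, measured -2.17 and -2.78 against -1.34 and -1.32, and Fbp1, another enzyme of gluconeogenesis, -1.16 and -1.51 against -0.49 and -0.97.

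Conjugation and oxidative stress genes were higher with fenofibrate in 16 of 39 (41.0%) and lower in 5, with a median of 0.22 (3-array counts 19 and 12, median 0.145). Ephx2, the soluble epoxide hydrolase and a known PPARα target, measured 1.62 and 1.56 with fenofibrate and 0.77 and 0.24 with lovastatin, with the HFC arrays at the pool level (-0.02 and -0.06). Gstm4 and Gstt3, both glutathione transferases, measured 0.50 and 0.59 against -0.33 and -0.08, and -0.21 and -0.09 against -0.98 and -0.92. Xenobiotic cytochromes P450 had 8 of 28 higher and 6 lower (3-array counts 10 and 10). Cyp3a41a measured 1.40 and 2.03 against 0.34 and 0.65, with HFC between the drugs at 1.31 and 1.12. Cyp2j5 and Cyp2j6, epoxygenases of arachidonic acid, measured -0.07 and 0.24 against -0.85 and -0.55, and -0.18 and -0.11 against -0.66 and -0.91. Growth hormone targets had 1 of 18 higher and 4 lower (3-array counts 5 and 7). Sult3a1, a female-biased sulfotransferase, was the lowest of them, at -5.80 and -6.34 against -5.46 and -4.88.

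Genes of translation, growth and regulation completed the lists. Cytosolic ribosomal proteins, chosen after the values were seen, were lower with fenofibrate in 41 of 64 (64.1%) and higher in 4, with a small median of -0.26 (3-array counts 46 and 10). Group means had opposite signs in 23 of the 41, against 64.9% over all genes lower with fenofibrate. Rpl5 measured -0.28 and -0.35 with fenofibrate and 0.46 and 0.49 with lovastatin, Rpl26 -0.29 and -0.50 against 0.39 and 0.40, and Rps7 0.04 and -0.04 against 0.63 and 0.62. Ribosomal protein genes have many processed copies, and their probes may read more than 1 of them. HFC replicate 1 lay nearer to lovastatin in 35 of the 41, whereas HFC replicate 2 did so in 8 of 23. Mitochondrial ribosomal proteins were balanced, with 16 of 75 higher and 18 lower, and so were proteasome subunits, with 9 of 48 higher and 10 lower. Their 3-array counts were 25 and 25, and 17 and 15. Both of these lists were also chosen after the values were seen.

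Cell cycle genes mostly overlapped, with 5 of 30 higher and 1 lower (3-array counts 6 and 8). Rrm2, a ribonucleotide reductase subunit, measured 1.02 and 1.24 with fenofibrate and -0.66 and 0.47 with lovastatin. Mcm6, a subunit of the replicative helicase, was also higher (1.41 and 1.43 against 0.30 and 0.94), while its partner Mcm4 was lower at 0.29 and 0.48 against 1.47 and 1.17. Circadian genes had 6 of 17 higher and 1 lower (3-array counts 7 and 3), among them Nr1d2, a repressor of the clock, at -0.17 and 0.47 against -0.78 and -0.77. Dbp, a clock output factor, measured -0.66 and 0.07 against -0.90 and -1.41, and the time of day of collection is not given in the sources used here. Unfolded protein response genes had 1 of 21 higher and 4 lower (3-array counts 2 and 14), with Hsp90b1, an endoplasmic reticulum chaperone, at -0.35 and -1.01 against -0.04 and 0.45. Of 22 nuclear receptors and their coactivators 6 lay higher and 2 lower (3-array counts 9 and 3). Nr1i2, the pregnane X receptor, measured 0.79 and 0.72 against 0.22 and 0.41, and Rxrb 0.45 and 0.06 against -0.91 and -0.50.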

How the data were processed

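Each spot has a single deposited value on every array, taken here as the log2 of mouse over chow pool. Its log base is unstated: a control spot at -9.71 is too low for base 10, and base 2 was taken by convention over base e. How the authors scanned, corrected and normalized the arrays is not given in the sources used here. Dim probes stayed in, as no intensities were used. Precision is limited by the number of arrays.

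Of 22575 spots, 561 control spots and 726 without a value were left out. The platform annotation gives 18658 probes 1 gene symbol, 30 several and 3887 spots none, and 18445 probes matched the gene table by Entrez number. Probes of a gene were averaged (1247 genes had several). Features with a value on all 4 arrays, 18803 of them and 16376 named, were fitted with limma 3.58.1 (lmFit and eBayes, statmod 1.5.0, R 4.3.3) over the 4 arrays, with 2 residual degrees of freedom and a prior of 2.27. Adjustment was by Benjamini-Hochberg over all features at a threshold of 0.05. Python 3.11.15 with numpy 2.4.6, pandas 2.3.3 and matplotlib 3.10.9 did the rest. On simulated data for fenofibrate against lovastatin, with 200 changed among 18803 features, the fit recovered 0%, 2.67% and 82% of changes of 1, 2 and 4 log2 units.

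Per the labels each replicate is its own mouse. The genes named are the 12 with the widest gap in each direction, up to 4 members per list with the widest gap, and a fixed set where measured. Other members were named after their values were seen, as were 5 of the 37 lists chosen (coagulation and complement, citrate cycle, both sets of ribosomal proteins, proteasome). All members and lists were chosen with earlier results of these data known. Same-numbered arrays of the 2 drugs did not deviate together (r = 0.0311 across features), so no pairing was used. Other settings tried were 3 normalizations, single probes, a filter on the noisiest 10% of features, a turned sign, all 6 arrays, array weights, a robust prior, a replicate block and each array left out.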

Additional observations from a re-analysis of the deposited data

How the results depend on the processing

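The count of features past the threshold stayed at 0 under every other setting except 2: it was 6 with the fenofibrate ratios turned in sign, and 0 to 1415 with each array left out, the 1415 without lovastatin replicate 2. With the replicate block it was 0, and pairing by number changed no call. The genes that separated the drugs numbered 5115 to 6811 higher and 5222 to 6802 lower with each array left out, and 3174 to 3678 and 3109 to 3759 under the normalizations, single probes, the filter and the turned sign. The turned sign stands for a ratio deposited as red over green on every array.

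Of 884 values of single genes under the normalizations, single probes, all 6 arrays, the replicate block and arrays left out, 870 kept their direction and their side of the threshold. Leaving out 1 array turned the direction of Abcg5 (-0.21), Apoa1 (0.035), Cpt1a (0.085), Cyp8b1 (0.23), Fasn (0.19), Insig1 (-0.31), Plin2 (-0.11) and Ppara (0.28). Scaling the arrays to the same median absolute deviation turned Hmgcs1 (-0.27) and Insig1 (-0.072), quantile normalization Insig1 (-0.036) and Sult3a1 (0.21), and single probes Vwf (0.28). The cause was not tested. The turned sign is not among the 884: it reversed the difference of 115 of the 176 named genes, Acot1 and Mogat1 among them. With arrays left out, only the value nearest to reversal was counted for each gene. The other such fits of a gene were not checked against the threshold here. The counted value of Mro was -1.83, and it changed its side of the threshold in a fit with 1 array left for 1 drug. The list medians kept their sign under all 6 settings in 25 of 38 lists, the 6 fatty acid lists together included as 1. Of the 228 list medians under these settings, 78 moved by at least the spread of the list between replicates. The counts without lovastatin replicate 1 by list were chosen after seeing the data.

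With 2 arrays per drug the number of arrays limits the precision. Dye, drug and, for lovastatin, the label text limit every comparison.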
